A study of Mus musculus with 4 samples.

Results

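The respiratory chain subunits that are encoded in the nucleus were examined in cultured periosteal cells of the mouse, sorted into PDGFRα reporter+ and PDGFRα reporter- populations. Members were chosen by gene symbol alone: the Nduf genes of complex I, the Sdh genes of complex II, the Uqcr genes of complex III, the Cox4 to Cox8 genes of complex IV and the Atp5 genes of complex V. Among 45802 gene symbols, 81 matched, and 77 of these had a value in all 4 libraries: 36 of complex I, 4 of complex II, 8 of complex III, 13 of complex IV and 16 of complex V. All 77 were annotated genes of GENCODE M21 on GRCm38, and the 9 pseudogene rows named after them had no value in any library.

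Both populations came from male Pdgfrα-mTmG mice aged 9 to 10 weeks given 5 daily doses of tamoxifen of 150 mg/kg each. In these mice a CreER recombinase under the Pdgfrα promoter switches cells from membrane tdTomato to membrane GFP, so the reporter records promoter activity at the time of tamoxifen rather than at harvest. Periosteal cells of femurs and tibias were taken 14 days after the last dose, pooled from 3 to 6 mice per preparation, grown for 1 passage with basic fibroblast growth factor at 10 ng/mL, and sorted as CD31-CD45-Ter119- cells with GFP (reporter+) or tdTomato (reporter-). Each population had 2 RNA-seq libraries, which carry the numbers 2 and 3 in the headings of the deposited table. They are called library 2 and library 3 here, and whether same-numbered libraries share a pool of mice is not given in the sources used here.

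The respiratory chain sits in the inner mitochondrial membrane. Complex I takes electrons from NADH and complex II from succinate. Ubiquinone carries them to complex III, cytochrome c carries them on to complex IV, and complex IV passes them to oxygen. Complexes I, III and IV pump protons as they do so, and complex V, the ATP synthase, makes ATP from the returning flow. Most subunits are nuclear genes, while the catalytic core of complexes I, III and IV and part of complex V is encoded by mitochondrial DNA and was not analysed here. Skeletal progenitor cells are known to draw on glycolysis and on oxidative phosphorylation to differing degrees as they proliferate and differentiate.

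Values are log2 signals that the authors quantile-normalised across libraries, so that every library has nearly the same distribution. The scale behind the log and any correction for gene length are not given, so levels are compared between libraries for 1 gene and not between genes. The read depth is unknown. Genes with a value numbered 15423 to 15605 per library, and the 14415 with a value in all 4 entered the tests. The labels call the cells periosteal stromal cells, and all 10 stromal genes listed had a value in every library. Postn, 1 of the 10, differed by library number, at -1.13 and 2.04 in reporter+ and at 0.14 and 3.04 in reporter- libraries 2 and 3. Pdgfra stood at 7.78 and 7.62 in reporter+ and at 7.87 and 7.44 in reporter- cells, so the transcript itself overlapped between populations. The linear values of 10 stromal genes summed to 2275 to 3248 per library. All 15 macrophage markers had a value in every library despite the CD45- gate. Their linear values summed to 263 and 306 in reporter+ against 104 and 196 in reporter- cells. Lyz2, at 7.65 and 7.88 against 6.27 and 7.25, made up most of these sums, which give no cell fraction. The part of such cells in the results was not tested.

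As sequence context for genes described here, upstream windows were read from the RefSeq promoter table (GRCm38.p6), which held 70 promoters for 65 of the 77 subunits. The 3 motifs searched, which are linked by textbook knowledge to nuclear respiratory genes, were sought on both strands over 300 bases, from 250 before to 50 after each start. These were the core of the NRF1 site (GCATGCG), the ETS motif bound by GABP (CCGGAAG) and the core of the YY1 site (AAGATGGC). The NRF1 core and its reverse complement overlap when the site is the full palindrome. The NRF1 core stood in 11 of the 70 promoters (15.7%), against 3.58% of all 32851 mouse promoters in the table and 5.77% of the promoters of tested genes. The ETS motif stood in 16 (22.9%, against 8.86% and 15.6%) and the YY1 core in 10 (14.3%, against 2.75% and 3.95%). At least 1 motif was present in 30 (42.9%, against 14% and 23.1%). Below are 4 windows of the 250 bases before the start, 1 each for complexes I, III, IV and V. They were picked because they hold a motif and at most 30 bases of annotated exon. Motif letters are in capitals and each strand is that of the gene, which is the minus strand for all 4. The windows lie at chr4:40279422-40279671 (Ndufb6), chr10:80406822-80407071 (Uqcr11), chr5:115348959-115349208 (Cox6a1) and chr9:44920743-44920992 (Atp5l).
Ndufb6: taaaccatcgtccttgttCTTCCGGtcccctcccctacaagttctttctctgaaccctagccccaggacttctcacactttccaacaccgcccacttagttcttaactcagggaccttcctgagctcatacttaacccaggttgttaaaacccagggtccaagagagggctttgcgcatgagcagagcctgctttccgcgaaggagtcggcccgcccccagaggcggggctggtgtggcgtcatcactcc
Uqcr11: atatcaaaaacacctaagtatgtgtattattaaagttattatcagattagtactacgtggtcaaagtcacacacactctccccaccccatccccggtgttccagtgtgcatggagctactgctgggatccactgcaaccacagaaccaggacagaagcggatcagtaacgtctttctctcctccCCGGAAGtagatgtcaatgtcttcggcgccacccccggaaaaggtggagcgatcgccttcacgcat
Cox6a1: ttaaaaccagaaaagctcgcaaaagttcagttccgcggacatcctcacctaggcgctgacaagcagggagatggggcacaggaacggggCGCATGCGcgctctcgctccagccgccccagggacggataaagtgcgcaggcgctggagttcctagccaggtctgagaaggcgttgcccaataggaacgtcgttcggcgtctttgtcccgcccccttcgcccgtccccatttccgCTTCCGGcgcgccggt
Atp5l: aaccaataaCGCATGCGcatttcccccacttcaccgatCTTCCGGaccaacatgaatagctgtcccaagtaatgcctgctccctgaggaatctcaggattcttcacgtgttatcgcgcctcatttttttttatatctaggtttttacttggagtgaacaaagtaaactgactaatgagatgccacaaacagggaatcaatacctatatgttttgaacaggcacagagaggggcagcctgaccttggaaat
The Cox6a1 and Atp5l windows hold the NRF1 palindrome and an ETS motif, and the other 2 hold an ETS motif alone. A match of letters is a description of the sequence only. Subunits with an NRF1 core (11) had a median log2 difference, reporter+ minus reporter-, of -0.11, and those with a promoter but without it (54) of -0.02. The same medians with and without the ETS motif were -0.02 and -0.02, and with and without the YY1 core 0.04 and -0.03.

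The first question was whether the 2 populations differ in respiratory chain transcripts. No subunit passed limma at a Benjamini-Hochberg adjusted p of 0.05, and the share of all 14415 genes that passed was likewise 0%. At an unadjusted p of 0.05 limma called 0 of 77 subunits, against 0.909% of all genes, and the smallest unadjusted p of a subunit in limma was 0.164. With 2 libraries against 2, an exact two-sided permutation test of a single value cannot give a p below 0.333. The mean difference was above 0 for 33 subunits and below 0 for 44, which turned to 52 and 25 when each library was centered on its cytosolic ribosomal protein genes. Over all genes 49.1% were above 0 as deposited and 67% after that centering, which adds 0.08 to the difference of every gene alike. The median difference was -0.02 over the 77 subunits and -0.0035 over all genes tested. By complex it was -0.0030 for complex I, -0.0043 for II, -0.07 for III, -0.05 for IV and -0.05 for V, and each of these medians was above 0 after ribosomal centering, at 0.01 to 0.08. Fewer cells of a type and less RNA per cell cannot be told apart in such bulk samples.

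Most subunits lay close together. Only 4 of the 77 had an absolute log2 difference over 0.25, while 26.7% of all genes did, and these were Cox7a1, Cox6b2, Cox4i2 and Atp5s. When genes whose mean log2 value lay below 0 were left out, it was 2 of 75 subunits, against 13% of the genes kept. With a pseudocount of 1 added to the linear values it was 1 of 77, Cox6b2, against 7.21% of all genes. Cox7a1, Cox6b2 and Cox4i2 are isoforms restricted to certain tissues and Atp5s, now called Dmac2l, is not counted among the structural subunits. The other 73 lay between -0.23 for Ndufa11 and 0.17 for Ndufc1, with standard errors of at most 0.32. Other lists lay as close together, with 48 cytosolic ribosomal protein genes between -0.14, for Rpl28, and 0.07 and 13 citric acid cycle genes between -0.17 and 0.12. The 95% confidence interval of Ndufa11 ran from -0.94 to 0.48 and that of Ndufc1 from -0.26 to 0.59, so differences well above these estimates are within what 2 libraries per population allow. The populations did not overlap for 5 subunits that were higher in reporter+ cells (Cox4i2, Cox7a2, Atp5j, Uqcrc2 and Ndufs4), against 7.59% of all genes. They did not overlap for 4 that were lower (Cox7a1, Atp5b, Ndufa8 and Atp5d), against 8.1% of all genes. After ribosomal centering the counts were 16 higher and 3 lower, against 12.9% and 4.3% of all genes.

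The comparison split by library number. Between the libraries numbered 2, reporter+ cells had the higher value for 55 of 77 subunits, against 50.3% of all genes, with a median difference of 0.07. Between the libraries numbered 3, reporter+ cells had the lower value for 57 of 77, against 53% of all genes, with a median of -0.12, and for 29 of 77, against 28.8% of all genes, with a median of 0.06 after centering on ribosomal protein genes. That centering moved the median of all genes between the libraries numbered 3 from -0.02 to 0.16. Relative to the median of all genes, which no centering alters, the subunits lay at 0.07 between the libraries numbered 2 and at -0.10 between those numbered 3. A subunit was higher in reporter+ cells in both comparisons in 16 cases (22.1% of all genes) and lower in both in 18 cases (24.8% of all genes), which became 34 (32.2% of all genes) and 11 (14.8%) after ribosomal centering. The 39 that were higher between libraries 2 and lower between libraries 3 made up 50.6% of the subunits, against 28.2% of all genes, and after ribosomal centering they numbered 18, or 23.4% of the subunits against 14% of all genes. Cytosolic ribosomal protein genes split in the same directions: of 48, 38 were higher in reporter+ cells between libraries 2, 45 were lower between libraries 3 and 36 were both. With 1 library per population and number, none of these differences has a replicate check.

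**Figure D1:**
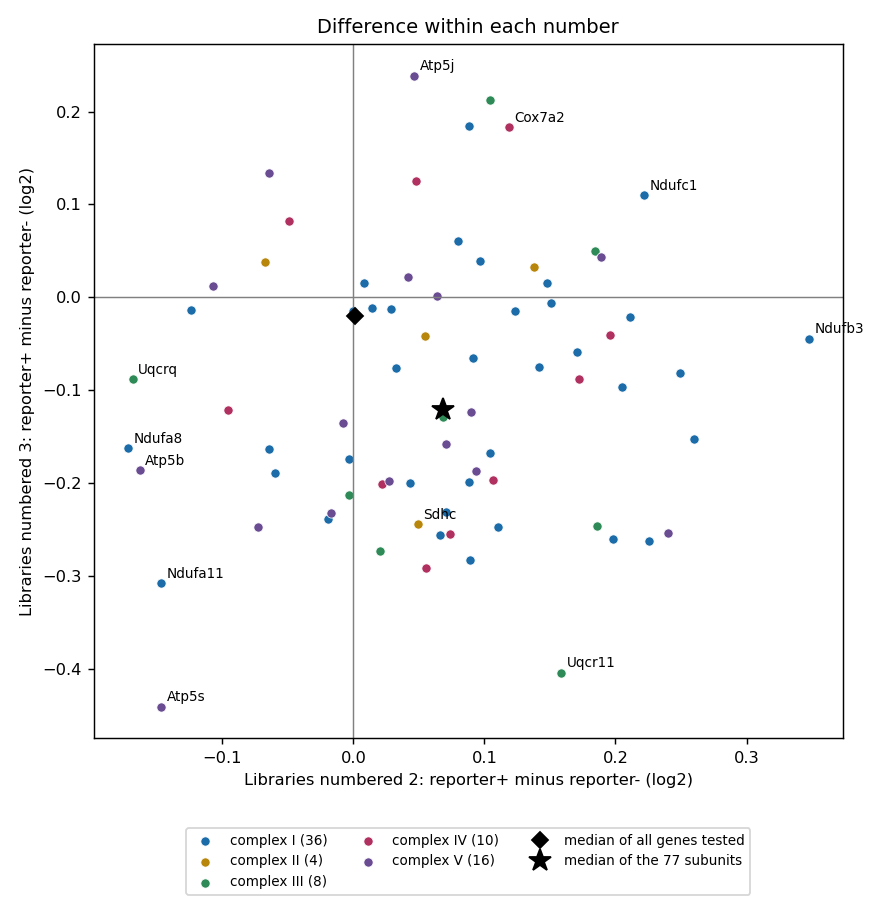
Log2 difference, reporter+ minus reporter-, between the libraries numbered 2 (x axis) and between those numbered 3 (y axis) for 74 subunits, colored by complex. The 3 tissue isoforms Cox7a1, Cox6b2 and Cox4i2 lie outside the axes, and the star, the median of the 77 subunits, stands at 0.07 and -0.12 (0.05 and 0.06 after ribosomal centering).

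Within each population, most subunits were higher in library 3 than in library 2. In reporter- cells, library 3 exceeded library 2 for 70 of 77 subunits, against 54.4% of all genes, with a median difference of 0.33, and for 59 after ribosomal centering, against 37.8% of all genes. In reporter+ cells it did so for 61 of 77, against 54% of all genes, with a median of 0.13. Reporter- library 3 held the highest of the 4 values for 52 subunits (29.1% of all genes) and for 23 after ribosomal centering (11.7% of all genes). Reporter- library 2 held the lowest for 50 subunits (26% of all genes) and for 42 after that centering (19.4% of all genes). The median log2 value of the 77 subunits was 4.83 and 5.02 in reporter+ libraries 2 and 3 and 4.74 and 5.03 in reporter- libraries 2 and 3. As deposited, the medians of the 2 reporter- libraries thus enclosed those of the 2 reporter+ libraries, and the median difference between populations had opposite signs in the 2 numbers. After ribosomal centering the medians were -3.30 and -3.12 in reporter+ and -3.38 and -3.28 in reporter- libraries 2 and 3, so that reporter+ library 3 was the highest and the enclosure was lost. Without reporter- library 3 the count of subunits with a mean difference above 0 was 66 of 77, and without reporter- library 2 it was 13 of 77.

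**Figure D2:**
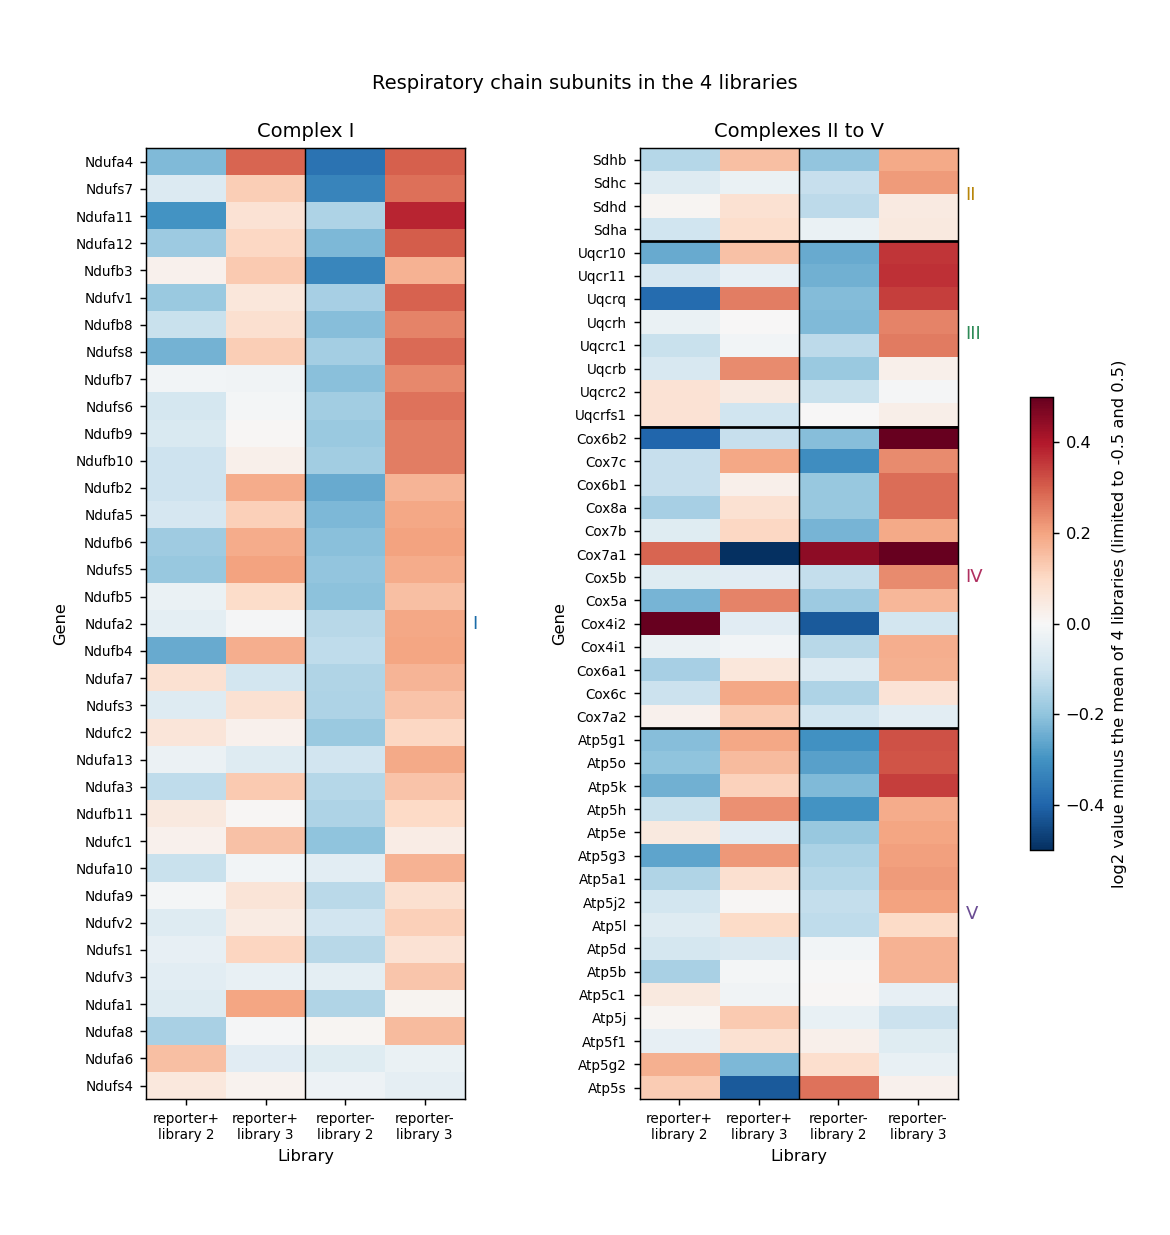
Deviation of each of 76 subunits from its mean over the 4 libraries (log2, color limited to -0.5 and 0.5), with genes in rows by complex and libraries in columns. Reporter- library 3 is the highest of the 4 for 52 of all 77 subunits and reporter- library 2 the lowest for 50 (23 and 42 after ribosomal centering).

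Adipocyte markers differed between the library numbers. The linear values of 6 markers summed to 3.58 and 41.6 in reporter+ libraries 2 and 3 and to 3.19 and 164 in reporter- libraries 2 and 3, so that both libraries numbered 3 were above both numbered 2 and reporter- library 3 was the highest. Fabp4, a fatty acid binding protein and the 1 marker of the 6 with a value in all 4 libraries, made up most of the sum in each library. It stood at 1.82 and 5.07 in reporter+ and at 1.63 and 6.90 in reporter- cells. Adipoq, which encodes adiponectin, was blank in reporter+ library 2, at 2.74 in reporter+ library 3, at -5.69 in reporter- library 2 and at 5.20 in reporter- library 3. Of the defining markers of brown fat, Ucp1 was at or below -5.13 or blank in every library, Cidea was at -5.73 in reporter+ library 2 and -3.99 in reporter- library 2 and blank in the others, and Lep, a white fat marker, was blank throughout. The median of 48 cytosolic ribosomal protein genes was 8.14 and 8.14 in reporter+ libraries 2 and 3 and 8.12 and 8.32 in reporter- libraries 2 and 3. Proliferation markers were ordered otherwise: 10 of 12 were lower in reporter+ cells between libraries 2 and higher between libraries 3, with medians of -0.71 and 0.32, and reporter+ library 2 was the lowest of the 4 for 11 of 12. The part of adipocyte-like cells, of the ribosomal shift or of proliferation in the subunit values was not tested.

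**Figure D3:**
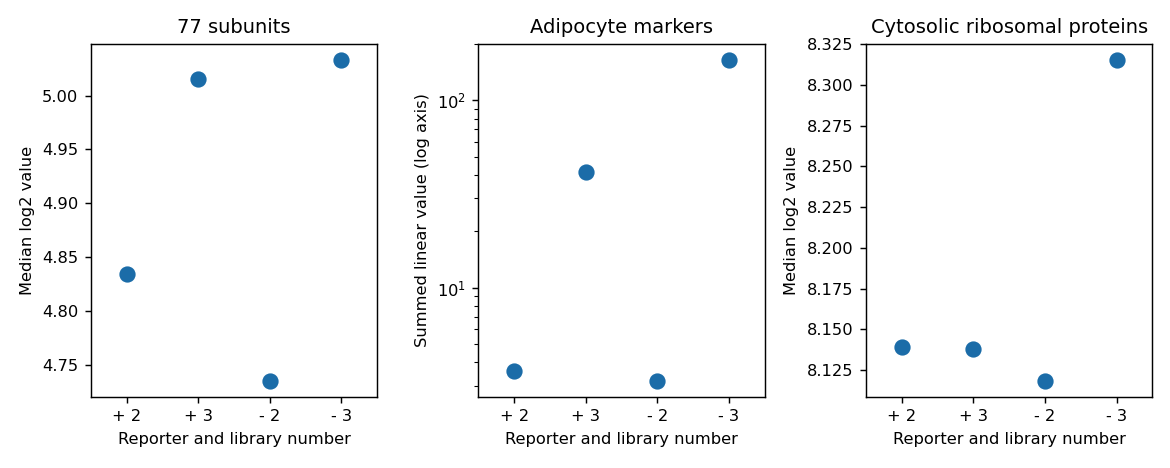
Median log2 value of the 77 subunits (left), summed linear value of 6 adipocyte markers on a log axis (middle) and median log2 value of 48 cytosolic ribosomal protein genes (right) in the 4 libraries, 1 point each. Reporter- library 3 is the highest point in all 3 panels (5.03, 164 and 8.32) and reporter- library 2 the lowest (4.74, 3.19 and 8.12) as deposited, on axes that do not start at 0.

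Complex I, the NADH dehydrogenase, split by library number like the whole set. Of its 36 subunits, 28 were higher in reporter+ cells between libraries 2 and 30 were lower between libraries 3, or 11 after ribosomal centering. Both held for 22, against 28.2% of all genes, or for 8 after that centering, against 14% of all genes. The median difference was -0.0030 between populations, 0.09 between libraries 2 and -0.08 between libraries 3, or 0.10 after that centering. In reporter- cells library 3 exceeded library 2 for 34 of 36. The widest such gap in complex I was 0.67 for Ndufa4, at 5.33 and 6.00 in the reporter- libraries, a protein since placed in complex IV that is counted here by its symbol. Among the modules of complex I, the median difference was -0.04 for 10 subunits of the NADH-oxidising module and 0.01 for 5 of the quinone module. It was 0.01 for 10 of the proximal and -0.01 for 10 of the distal membrane arm. In the same order the medians were 0.08, 0.09, 0.04 and 0.13 between libraries 2. Between libraries 3 they were -0.19, -0.07, -0.05 and -0.08 as deposited.

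The complex I subunit with the lowest difference was Ndufa11, a membrane arm subunit (chr17:56717767-56722141), at 2.28 and 2.65 in reporter+ and 2.43 and 2.96 in reporter- cells. The difference was -0.23 (SE 0.27, n = 2 per population; limma adjusted p = 1), the populations overlapped, and without reporter- library 3 it was 0.04. Ndufa11 overlaps Vmac on the other strand, and whether reads were counted by strand is not given in the sources used here. Ndufa8, also of the membrane arm (chr2:36036326-36049406), stood at 4.36 and 4.52 in reporter+ and at 4.53 and 4.68 in reporter- cells. Its populations did not overlap, by a gap smaller than the spread within either, and the difference was -0.17 (SE 0.15). Ndufv1, which binds NADH and FMN, had a difference of -0.13 (SE 0.22).

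At the other end were Ndufc1, Ndufb3 and Ndufa1. Ndufc1 (chr3:51404677-51408988) stood at 4.11 and 4.24 in reporter+ and at 3.89 and 4.13 in reporter- cells, a difference of 0.17 (SE 0.16) with overlapping populations. Ndufb3 stood at 3.66 and 3.77 against 3.31 and 3.81, a difference of 0.15 (SE 0.22) that was -0.10 without reporter- library 2. Ndufa1 stood at 4.30 and 4.56 against 4.21 and 4.37, a difference of 0.14 (SE 0.17) that was 0.01 without reporter+ library 3. Ndufs4, an accessory subunit of the NADH module, had all reporter+ values above all reporter- values, at 3.49 and 3.45 against 3.41 and 3.39, which is a difference of 0.07 (SE 0.14). The 95% confidence interval of each of these differences included 0.

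Complex II, succinate dehydrogenase, is also an enzyme of the citric acid cycle and is wholly nuclear in its coding. Sdha, the flavoprotein that oxidises succinate, stood at 5.38 and 5.57 in reporter+ and at 5.45 and 5.53 in reporter- cells, a difference of -0.01 (SE 0.15) that ribosomal centering turned to 0.06. Sdhb, the iron-sulfur subunit, stood at 4.57 and 4.86 against 4.51 and 4.90, a difference of 0.01 (SE 0.21). The membrane anchors Sdhc and Sdhd had differences of -0.10 (SE 0.17) and 0.09 (SE 0.14). As deposited, all 4 were higher in library 3 than in library 2 in each population and the populations overlapped for each. After ribosomal centering 2 of the 4 were higher in library 3 of reporter- cells, against 37.8% of all genes. The populations then did not overlap for 1, which was higher in reporter+ cells, against 12.9% of all genes.

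Complex III passes electrons from ubiquinol to cytochrome c. It had the largest median gap between the reporter- libraries of any complex, 0.43 for library 3 over library 2, with all 8 subunits higher in library 3, and 6 after ribosomal centering. Uqcr11 (chr10:80402997-80406830), a small subunit whose upstream window is printed above, stood at 5.71 and 5.75 in reporter+ and at 5.55 and 6.15 in reporter- cells. Its difference was 0.16 between libraries 2 and -0.40 between libraries 3, the lowest of the 73 structural subunits in the latter. Uqcrq stood at 2.07 and 2.71 against 2.24 and 2.80, so that the gap within each population exceeded the difference between them of -0.13 (SE 0.32). The core protein genes went apart in sign: Uqcrc1 had a difference of -0.13 (SE 0.19) and Uqcrc2 one of 0.12 (SE 0.14). Uqcrc2 stood at 4.74 and 4.71 against 4.56 and 4.67 without overlap, and Uqcrb, a quinone-binding subunit, at 5.24 and 5.56 against 5.14 and 5.35, a difference of 0.16 (SE 0.18). Uqcrc2 and Uqcrb overlap Pdzd9 and Gm10767 on the other strand. The hinge protein gene Uqcrh had a difference of -0.03 (SE 0.22), or 0.05 after ribosomal centering.

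Complex IV, cytochrome c oxidase, has subunits that occur as paired isoforms, a widely used form and one restricted to muscle, lung, testis or other tissues. The widely used forms had values well above 0 on the log2 scale in every library. Cox4i1, which overlaps Emc8 on the other strand, stood at 7.05 and 7.07 in reporter+ and at 6.94 and 7.26 in reporter- cells, a difference of -0.05 (SE 0.20), or 0.03 after ribosomal centering. Cox6a1 (chr5:115345642-115348981) stood at 5.87 and 6.09 against 5.96 and 6.21, a difference of -0.11 (SE 0.18). Cox6b1 and Cox8a had differences of -0.09 (SE 0.22) and -0.09 (SE 0.23), with reporter- library 3 the highest of the 4 for both, at 6.81 and 6.84. Cox7a2 (chr9:79755361-79759878) stood at 5.06 and 5.17 against 4.94 and 4.99 without overlap, a difference of 0.15 (SE 0.14). Cox5b had a difference of -0.12 (SE 0.18) and Cox6c, which overlaps Vps13b on the other strand, one of 0.09 (SE 0.19).

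Of the restricted isoforms, Cox7a1, Cox6b2 and Cox4i2 had a value in all 4 libraries and the other 4 were blank in at least 2. Cox7a1, the heart and skeletal muscle form (chr7:30184144-30186078), stood at -2.10 and -3.98 in reporter+ and at -1.94 and -1.54 in reporter- cells. Its populations did not overlap and its difference of -1.30 (SE 0.78; limma unadjusted p = 0.164, adjusted p = 1) was the largest of any subunit. The reporter+ libraries differed from each other by 1.88, more than the difference between the populations, and without reporter+ library 3 the difference was -0.36, while with a pseudocount of 1 it was -0.18. Most skeletal muscle markers also had lower values in reporter+ cells. Of 10 markers, 6 had a value in all libraries, 5 of these were lower in reporter+ cells in both comparisons, against 24.8% of all genes, and 4 were lower without overlap between populations, against 8.1% of all genes. The linear values of the 10 summed to 1.18 and 1.34 in reporter+ against 3.16 and 1.95 in reporter- cells. Of the defining markers, Myh2 was blank in every library, Ckm had a value in reporter- library 2 alone and Mb, myoglobin, in the reporter- libraries alone at -5.71 and -5.77. The part of muscle RNA in the Cox7a1 values was not tested.

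Cox6b2, the testis form (chr7:4751792-4753094), stood at 0.69 and 0.97 in reporter+ and at 0.88 and 1.82 in reporter- cells, a difference of -0.51 (SE 0.39) with overlapping populations, and of -0.04 without reporter- library 3. Cox4i2, the form known from lung (chr2:152754173-152765037), stood at -2.375 and -2.995 against -3.36 and -3.03, a difference of 0.51 (SE 0.53), being 0.98 between libraries 2 and 0.04 between libraries 3. With a pseudocount of 1 on the linear scale it was 0.06. Cox8b, the heart and skeletal muscle form, was blank in both reporter+ libraries and stood at -3.89 and -3.95 in the reporter- libraries. Cox6a2, another muscle form, had a value in reporter- library 3 alone, at -3.79, and Cox7b2 in reporter+ library 3 alone, at -4.53. Cox8c was blank in all 4. The lowest values of this table reach -10.1, so a blank is not a value below a fixed limit, and no fold is given for these genes.

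**Figure D4:**
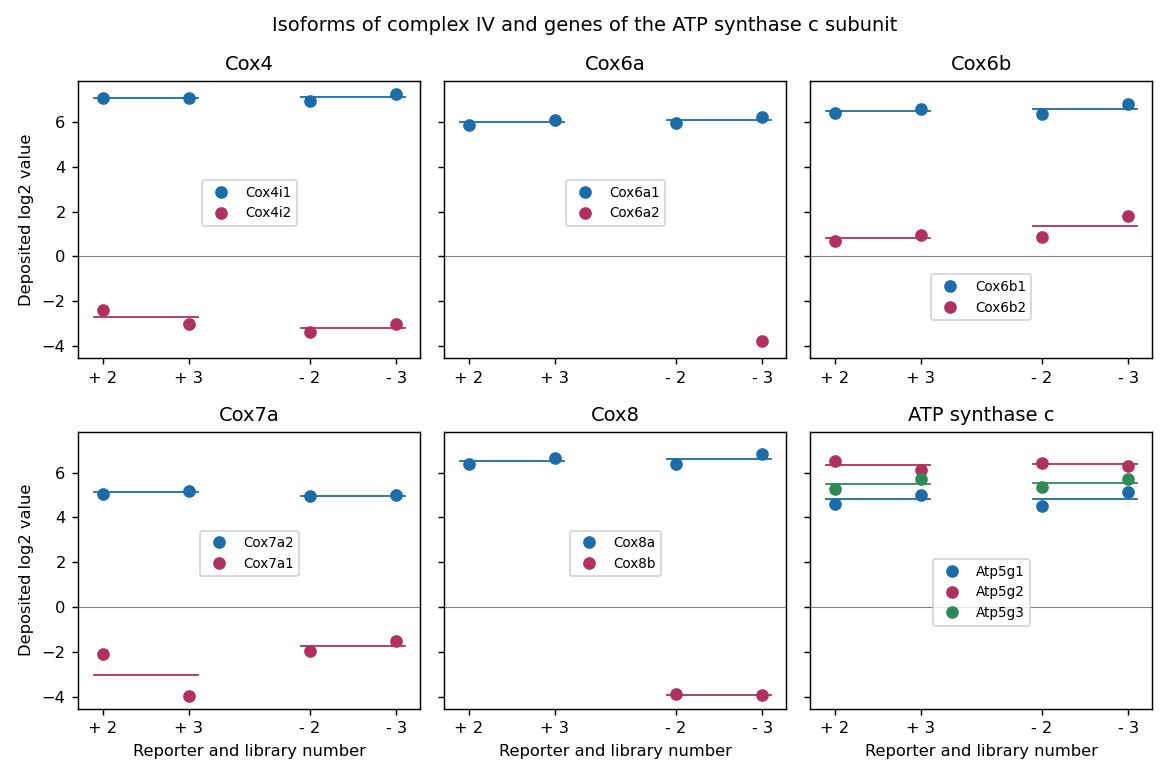
Deposited log2 values of the paired complex IV isoforms and of the 3 genes of the ATP synthase c subunit in the 4 libraries (points, + for reporter+ and - for reporter-, with the library number), with lines at the mean of each population. Blank values are not drawn, heights are not comparable between genes because length scaling is unknown, and Cox7a1 spans -3.98 to -1.54.

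Complex V, the ATP synthase, had differences from -0.29 for Atp5s to 0.14 for Atp5j. Of its 16 genes 9 were higher in reporter+ cells between libraries 2 and 10 were lower between libraries 3, or 7 after ribosomal centering, and 11 were higher in library 3 than in library 2 of reporter- cells, or 9 after it. Atp5b, the catalytic beta subunit (chr10:128083273-128090391), stood at 7.26 and 7.41 in reporter+ and at 7.42 and 7.59 in reporter- cells. The higher reporter+ value lay just under the lower reporter- value, while the libraries of each population differed by 0.15 and 0.18, and the difference was -0.17 (SE 0.19). Atp5d, the delta subunit of the central stalk, stood at 4.77 and 4.79 against 4.84 and 5.03, a difference of -0.16 (SE 0.15) without overlap, and it overlaps Cbarp on the other strand. Atp5s stood at 0.43 and -0.12 against 0.57 and 0.32, a difference of -0.29 (SE 0.33) with overlap, of -0.02 without reporter+ library 3 and of -0.16 with a pseudocount of 1.

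At the other end of complex V, Atp5j, coupling factor 6 of the peripheral stalk (chr16:84827866-84835625), stood at 5.22 and 5.35 in reporter+ and at 5.18 and 5.11 in reporter- cells, a difference of 0.14 (SE 0.14) without overlap. It lies head to head with Gabpa, a gene for 1 chain of the ETS factor GABP, and their annotated exons overlap. Atp5h and Atp5f1, also of the peripheral stalk, had differences of 0.12 (SE 0.24) and 0.03 (SE 0.14), and Atp5f1 overlaps Wdr77 on the other strand. The proton-carrying c ring is encoded by 3 genes that yield the same mature protein. Atp5g1 stood at 4.61 and 5.02 against 4.52 and 5.14, Atp5g2 at 6.52 and 6.11 against 6.43 and 6.30, and Atp5g3 at 5.25 and 5.73 against 5.36 and 5.72. Atp5g1 and Atp5g3 were higher in library 3 of both populations, by 0.36 to 0.62, while Atp5g2 was lower there, by 0.40 in reporter+ and 0.12 in reporter- cells. The differences between populations were -0.02, -0.05 and -0.05 (SE 0.28, 0.20 and 0.24), and each was slightly above 0, at 0.03 to 0.06, after ribosomal centering.

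**Figure D5:**
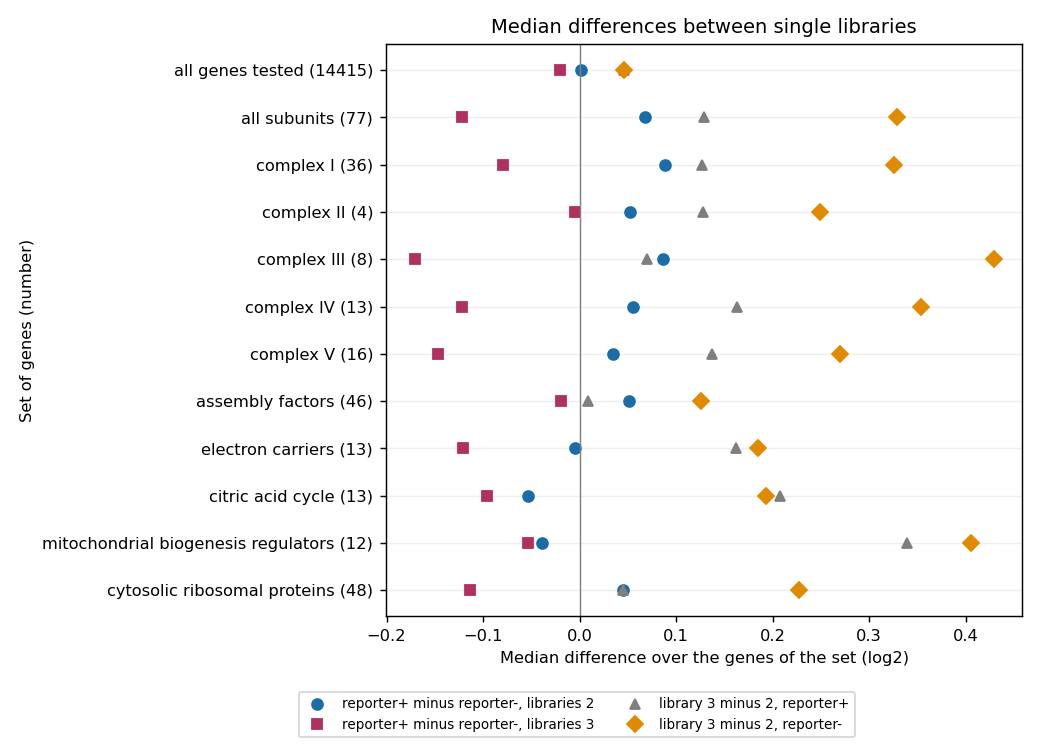
Median log2 difference over all genes tested, all subunits, each complex and 5 related lists: reporter+ minus reporter- between libraries 2 and between libraries 3, and library 3 minus library 2 within each population. For the 77 subunits the widest median is that of library 3 minus 2 in reporter- cells, at 0.33 against 0.05 for all genes (0.13 and -0.15 after ribosomal centering).

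Genes that act with the respiratory chain were taken from lists and treated alike, and in none did a gene pass limma's adjusted p of 0.05. Of 46 assembly factors, 21 were above 0 and 25 below, with a median difference of -0.01, or 0.07 after ribosomal centering, and among those whose mean log2 value was 0 or more the largest difference was that of Coa4, an assembly factor of complex IV, at -0.30 (SE 0.27), or -0.17 with a pseudocount of 1. The 6 subunits whose symbols fall outside the rule had a median of -0.02, or 0.06 after ribosomal centering. Among them Usmg5, a small ATP synthase subunit, stood at 5.25 and 5.53 in reporter+ and at 5.17 and 5.00 in reporter- cells, a difference of 0.31 (SE 0.17) without overlap. Electron carriers and the genes of ubiquinone synthesis (13) had a median of -0.06, or 0.02 after that centering, and Etfb, a chain of the electron transfer flavoprotein, a difference of -0.27 that was 0.03 without reporter- library 3.

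Citric acid cycle genes supply the NADH and succinate that complexes I and II oxidise. Of 13, 11 had a mean difference below 0, against 7339 of all 14415 genes, or 7 after ribosomal centering, against 4756. In both comparisons 8 were lower in reporter+ cells, against 24.8% of all genes, or 3 after that centering, against 14.8%. The median was -0.05 between libraries 2 and -0.10 between libraries 3, the latter 0.08 after that centering. The largest difference of the list was that of Idh3a, a subunit of isocitrate dehydrogenase, which stood at 2.24 and 2.89 in reporter+ and at 2.48 and 3.00 in reporter- cells, a difference of -0.17 (SE 0.32) with overlap. Cs, citrate synthase, stood at 4.55 and 5.02 in reporter+ and at 4.67 and 5.11 in reporter- cells, and Mdh2, the mitochondrial malate dehydrogenase, at 5.19 and 5.63 against 5.29 and 5.71, so that for Cs and Mdh2 the gap between library numbers was several times that between populations. Regulators of mitochondrial genes (12) had a median of -0.06, or 0.02 after ribosomal centering. Among these, Tfam, which packages mitochondrial DNA, stood at 1.59 and 2.02 against 1.54 and 1.80, and Polrmt, the mitochondrial RNA polymerase, at 1.86 and 2.23 against 2.00 and 2.62. Ppargc1a, the coactivator PGC-1α, was low in all libraries, from -5.08 to -3.58. The factors whose motifs were searched overlapped between populations, with Nrf1 from 0.64 to 1.12, Gabpa from 3.03 to 3.35 and Yy1 from 3.22 to 3.34.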

How the data were processed

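The authors sequenced stranded paired-end libraries of total RNA (Illumina) and deposited 1 table of log2 values after quantile normalisation, with a blank where a gene had no signal. Per the labels, the processing notes name GRCm38.p6, bcl2fastq 2.17.1.14 and Partek 7.0. The aligner, the counting method and the linear unit are not given in the sources used here, so the depth is unknown. Table columns were assigned to populations by their headings, whose numbers 2 and 3 match no sample title. Members and lists were chosen with earlier results of these data known. The fit used limma 3.58.1 in R 4.3.3 (lmFit, eBayes with a trend, two-sided) on the 14415 genes present in every library, with Benjamini-Hochberg adjustment over all of them. The fit was tried on simulated data. Recovery of the changed genes was required there only without an effect of library number, or with the number as a block. Standard errors and p-values are moderated by eBayes, which draws the variance of each gene toward that of genes of like level. For Ndufs4 the SE was 0.14, while the SDs within the populations were 0.03 and 0.01. The p-values thus rest on the spread between 2 libraries per population and on that of the other genes. Sets were described by counts and medians, with no test. Named were the 3 highest and 3 lowest members per complex, isoform families, non-overlapping and blank members, and the gene with the largest difference per related list among those whose mean log2 value was 0 or more. Cs, Mdh2, Tfam, Ppargc1a, Nrf1, Gabpa, Yy1, Fabp4 and Adipoq were chosen after their values were seen. The 12 alternatives set at the start were the replicate block, a pseudocount of 1, a level filter, 2 centerings, no trend, leaving out each library, and 2 other member sets. A single subunit is counted in the sets but not reported by itself here.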

Additional observations from a re-analysis of the deposited data

Results flagged for a closer look

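The median log2 difference of the 77 respiratory chain subunits, reporter+ minus reporter-, was lower between the libraries numbered 3 than between those numbered 2 by a value of -0.19. It was picked out because the same contrast had opposite signs in the 2 numbers as deposited. With 1 library per population and number the difference between the numbers was not tested. Centering adds the same amount to every gene of a library, so the signs depend on it (0.05 and 0.06 after ribosomal centering), while relative to the median of all genes the subunits lay at 0.07 and -0.10 under any centering.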

How the results depend on the processing

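No subunit was called under any alternative. Whether the library numbers pair the samples cannot be settled with 2 pairs. Deviations of same-numbered libraries from their population means correlated at 0.68 over all genes and at 0.35 over the subunits, or 0.58 over the 73 structural ones, and with the number as a replicate block limma called 29 of 14415 genes and 0 subunits (smallest adjusted p of a subunit 0.75, against 1 without the block), with Cox6b2 and Cox7a1 at an unadjusted p of 0.0415 and 0.0452, where 913 genes fell under 0.05. A block without the trend, added after seeing the data, called 0 of all genes. Centering each library on its ribosomal protein genes gave 52 subunits above 0, 25 below 0 and 29 lower between libraries 3, a median of 0.0560 between libraries 3 and of 0.1325 for library 3 minus 2 in reporter- cells. It turned the sign of Atp5g1 (0.0619), Atp5g2 (0.0318), Atp5g3 (0.0314), Cox4i1 (0.0333), Sdha (0.0636) and Uqcrh (0.0483), as it adds 0.0785 to the difference of every gene alike and these lay just below 0. As deposited, non-overlapping subunits numbered 5 higher and 4 lower, against 7.59% and 8.1% of all genes. After ribosomal centering they numbered 16 and 3, against 12.9% and 4.3% of all genes. Of 42 named differences, 26 kept their sign but changed by over 1.5 times. Centering on the library median, the pseudocount, the level filter, the fit without a trend and the other member sets turned no median of subunits. They moved none of the counts above 0, below 0, by library number or of calls by over 1.5 times. Centering on the library median did move the non-overlapping subunits of complex I from 1 higher and 1 lower to 2 and 2 of 36. Of all genes, 7.59% and 8.1% did not overlap as deposited, and 7.55% and 8.37% after that centering. The median of complex IV was -0.0143 under both other member sets, against -0.0452, and that of complex I was -0.0075 with Ndufa4 counted in complex IV, against -0.0030. The pseudocount moved Cox4i2 to 0.0620, Cox7a1 to -0.1846, Atp5s to -0.1569 and Coa4 to -0.1674, and left 1 of 4 subunits over 0.25, against 7.21% of all genes. The level filter left 2 of 4, as it drops Cox7a1 and Cox4i2, against 13% of all genes it keeps, and ribosomal centering left 3, against 28.5% of all genes.

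Leaving out each library in turn, fits with 1 library in a population assume that it varies like the others. The median over the subunits was 0.0630 without reporter+ library 2, -0.0775 without reporter+ library 3, -0.1959 without reporter- library 2 and 0.1436 without reporter- library 3. The count above 0 then ran from 13 to 66, the count below 0 from 11 to 64, and the median of complex I from -0.1810 to 0.1567, of II from -0.1215 to 0.1188, of III from -0.2928 to 0.1759, of IV from -0.2050 to 0.1436 and of V from -0.2138 to 0.1076. Ranges of single log2 differences that turned sign were Atp5f1 from -0.0221 to 0.0920, Atp5g1 from -0.3259 to 0.2926, Atp5g2 from -0.2489 to 0.1554, Atp5g3 from -0.2871 to 0.1929, Atp5h from -0.1266 to 0.3584, Cox4i1 from -0.2050 to 0.1147, Cox5b from -0.2946 to 0.0590, Cox6a1 from -0.2324 to 0.0151, Cox6b1 from -0.3245 to 0.1436, Cox6c from -0.0640 to 0.2371, Cox8a from -0.3221 to 0.1433, Ndufa11 from -0.4943 to 0.0396, Ndufb3 from -0.0989 to 0.4018, Ndufv1 from -0.3597 to 0.1016, Sdha from -0.1084 to 0.0786, Sdhb from -0.1875 to 0.2002, Sdhc from -0.2606 to 0.0654, Sdhd from -0.0013 to 0.1721, Uqcr11 from -0.4257 to 0.1803, Uqcrb from -0.0003 to 0.3172, Uqcrc1 from -0.3213 to 0.0686, Uqcrh from -0.2643 to 0.2038, Uqcrq from -0.4488 to 0.1923, Etfb from -0.5799 to 0.0304, Idh3a from -0.5007 to 0.1510, Polrmt from -0.5728 to 0.0476. Ranges that kept their sign but moved by over 1.5 times were Ndufa1 from 0.0055 to 0.2674, Ndufc1 from 0.0476 to 0.2848, Ndufa8 from -0.2451 to -0.0892, Cox7a1 from -2.2394 to -0.3567, Cox6b2 from -0.9833 to -0.0424, Cox4i2 from 0.1996 to 0.8201, Atp5b from -0.2627 to -0.0869, Atp5d from -0.2537 to -0.0656, Atp5s from -0.5657 to -0.0214, Atp5j from 0.0812 to 0.2040, Uqcrc2 from 0.0626 to 0.1716, Cox7a2 from 0.0955 to 0.2067, Usmg5 from 0.1697 to 0.4427 and Rpl28 from -0.2388 to -0.0340.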

Other observations

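Ndufa4l2, a paralog of the complex IV subunit Ndufa4 known as a hypoxia-responsive gene, falls outside the symbol rule and was chosen after its values were seen. It stood at 6.02 and 4.29 in reporter+ and at 5.50 and 2.42 in reporter- cells, a difference of 1.20 (SE 1.19, n = 2 per population, limma adjusted p = 1), and was higher in reporter+ cells in both comparisons, by 0.52 and 1.87. It was lower in library 3 than in library 2 of both populations, while 61 and 70 of the 77 subunits were higher there. Cycs, cytochrome c, was higher in library 3 by 1.40 in reporter+ and by 1.02 in reporter- cells.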
